A study of Mus musculus with 26 samples.

Results

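The step from 2 to 6 h of 8-CPT-cAMP in deathless S49 cells was measured by comparing 3 arrays of D- cells at 6 h directly with 3 arrays of D- cells at 2 h, 6 of the 26 arrays in the series. S49 is a mouse T lymphoma line of immature thymocyte type, and D- is its deathless variant, which survives raised cyclic AMP (cAMP), a signal that stops and then kills wild-type (WT) S49 cells. The D- cells were either left untreated (4 arrays) or given 8-CPT-cAMP, a cell-permeable cAMP analogue, for 2, 6 or 24 h (3 arrays each). The WT cells were sampled at the same times with the same numbers of arrays. All cells grew in suspension in medium with horse serum, and no vehicle-treated group at 2 or 6 h was used here, so time in culture and treatment cannot be told apart. The labels give the dose as 100 mM, which may be an error of unit. The replicates are labelled biological but no separate cultures are described, so every p-value here rests on the scatter of these arrays alone, and that scatter may be technical. RNA was hybridised to 1 single-colour Affymetrix array per sample, and values are log2 of the deposited intensity, on which a difference of 1 is a 2-fold change.

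cAMP acts in these cells mainly by releasing the catalytic subunits of protein kinase A (PKA), which phosphorylate the transcription factor CREB at cAMP response elements (CRE) in promoters. Genes under CREB are typically switched on within the first hours, and many of them encode proteins that damp the signal again, such as the repressor form made from Crem, phosphatases of the MAP kinases, and RNA-decay factors of the Zfp36 family. In thymocytes cAMP is also known for stopping the cell cycle in G1, lowering Myc and altering the genes of T cell receptor assembly. The step from 2 to 6 h therefore covers the time in which first-wave transcripts can fade and later ones can begin.

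Promoters of 6 genes are shown first, because they carry the motifs searched: 5 belong to early rises that decayed, and Mdn1 to a fall that was new at the step. Each is the 300 bases from 250 before to 50 after the gene's start, from RefSeq, build GRCm38.p6, written 5′ to 3′ along the gene. Dusp1 lies at chr17:26508423-26508722 (minus strand), Ppp1r15a at chr7:45526219-45526518 (minus strand), Maff at chr15:79347270-79347569 (plus strand), Nr4a1 at chr15:101266596-101266895 (plus strand), Fos at chr12:85473640-85473939 (plus strand) and Mdn1 at chr4:32656869-32657168 (plus strand). In the first 5 the capitals mark the CRE core (TGACG, or CGTCA on the other strand), and in Dusp1, Ppp1r15a and Maff 1 of these stretches is the full palindrome TGACGTCA. In Mdn1 the capitals mark the E-box CACGTG, which MYC and MAX can bind. Each promoter is marked for 1 motif only. Mdn1 also holds the CRE core in small letters, and Dusp1 and Maff also hold the E-box in small letters.
Dusp1: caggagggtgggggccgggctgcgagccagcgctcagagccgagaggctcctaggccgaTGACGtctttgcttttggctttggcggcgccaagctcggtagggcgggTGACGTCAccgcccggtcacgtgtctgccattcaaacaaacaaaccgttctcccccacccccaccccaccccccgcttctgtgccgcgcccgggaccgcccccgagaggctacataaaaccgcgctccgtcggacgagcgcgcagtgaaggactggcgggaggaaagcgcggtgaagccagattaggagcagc
Ppp1r15a: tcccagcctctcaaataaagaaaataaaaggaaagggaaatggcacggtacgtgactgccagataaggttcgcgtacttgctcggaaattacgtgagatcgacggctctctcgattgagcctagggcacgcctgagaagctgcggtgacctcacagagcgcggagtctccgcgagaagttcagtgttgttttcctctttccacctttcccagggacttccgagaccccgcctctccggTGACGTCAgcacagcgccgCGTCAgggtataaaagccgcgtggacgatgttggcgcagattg
Maff: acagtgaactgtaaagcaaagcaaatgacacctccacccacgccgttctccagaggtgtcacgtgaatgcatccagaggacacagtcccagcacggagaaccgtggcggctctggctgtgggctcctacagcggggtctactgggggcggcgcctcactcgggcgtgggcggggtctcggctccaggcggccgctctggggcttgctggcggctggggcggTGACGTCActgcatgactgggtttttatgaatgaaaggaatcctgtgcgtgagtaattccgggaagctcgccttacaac
Nr4a1: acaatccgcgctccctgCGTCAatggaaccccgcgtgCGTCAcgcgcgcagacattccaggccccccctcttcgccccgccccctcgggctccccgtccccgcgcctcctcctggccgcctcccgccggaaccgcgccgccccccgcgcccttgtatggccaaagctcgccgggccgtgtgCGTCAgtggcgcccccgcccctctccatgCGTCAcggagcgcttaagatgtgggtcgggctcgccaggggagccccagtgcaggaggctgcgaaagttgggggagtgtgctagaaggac
Fos: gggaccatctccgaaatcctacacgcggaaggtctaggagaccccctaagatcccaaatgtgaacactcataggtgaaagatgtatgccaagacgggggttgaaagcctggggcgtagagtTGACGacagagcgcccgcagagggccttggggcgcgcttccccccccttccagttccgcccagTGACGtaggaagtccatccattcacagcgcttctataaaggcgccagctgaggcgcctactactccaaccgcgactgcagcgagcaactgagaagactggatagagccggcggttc
Mdn1: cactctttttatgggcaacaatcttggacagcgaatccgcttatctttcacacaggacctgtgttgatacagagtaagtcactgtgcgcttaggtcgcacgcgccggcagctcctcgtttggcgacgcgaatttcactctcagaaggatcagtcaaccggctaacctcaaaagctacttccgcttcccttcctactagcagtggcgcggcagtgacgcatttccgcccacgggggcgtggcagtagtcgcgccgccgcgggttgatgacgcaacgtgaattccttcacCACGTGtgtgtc

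The palindrome began 143 bases before the gene's start in Dusp1, 12 before it in Ppp1r15a and 29 before it in Maff. Of the 73 genes whose early rise decayed, 52 had a promoter in the table, and 6 of these (11.5%) held the palindrome: Dusp1, Maff, Ppp1r15a, St7, Tinf2 and Zfand2a. It stood in 3.7% of the 6109 promoters of all genes tested and in 1.79% of the 32851 promoters of the whole table. Among other classes it was in 7.69% of 39 promoters of undecided rises, 5.41% of 37 of held falls and 2.99% of 67 of held rises. Each remaining class had it in at most 1.96%. The core, which the palindrome contains, was in 55.8% of promoters of decayed rises, in 49.3% of 67 promoters of rises that held and in 38.1% of those of all genes tested. The promoters of falls that recovered held it in 28.4% of 116. The E-box was in 11 of 38 promoters of new falls (28.9%), in 26.9% of undecided falls, 19.2% of decayed rises and 18.1% of recovered falls, and in 12.3% of all genes tested. The CCAAT box, searched as CCAAT or ATTGG, was in 55.8% of decayed rises, 56.7% of rises that held and 43.3% of all genes tested. These shares are descriptions with no test, and a match is not evidence of binding.

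From 2 to 6 h more genes rose than fell on the deposited scale. These are bulk samples, so fewer cells with a transcript and less of it per cell cannot be told apart. A gene was tested if its probe set reached log2 5 on at least 3 arrays, which kept 12724 probe sets, and the brightest probe set stood for each of 7435 genes. By limma at an adjusted p under 0.05, 1070 genes (14.4%) were higher at 6 h than at 2 h and 685 (9.21%) were lower. A change of at least 2-fold was reached by 309 genes upward (4.16%) and 114 downward (1.53%), while the median over all genes tested was -0.01. Among probe sets 1693 (13.3%) were called higher and 1156 (9.09%) lower, and 59.4% of the calls were higher. This split depended on scaling, since centring each array on its median gave 1350 higher and 1816 lower, 42.6% of calls higher. All 3 arrays at 6 h lay above all 3 at 2 h for 1782 genes (24.0%) and below them for 1490 (20.0%). A group mean under log2 5 is treated as a bound, so a change from or to it is given as the distance of the brighter mean from 5. The p-value beside a bound is that of the fitted change, which uses the values under 5 as they are. Where values under 5 were set to 5 instead, this is stated.

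Large steps in both directions show the range of the data. Ms4a6b, a tetraspan surface protein of the MS4A family, read 3.18, 4.56 and 5.03 at 2 h and 8.06, 9.02 and 8.69 at 6 h, a rise of at least 3.59 (limma adjusted p = 0.000178). Pias3, an inhibitor of STAT3, read 5.06, 4.65 and 5.15 at 2 h against 7.85, 7.31 and 7.25 at 6 h, a rise of at least 2.47 (limma adjusted p = 2.5e-07), while a dimmer probe set had a step of 0.27 that was not called and the mean of both a step of 1.39. In the other direction Zdhhc14, a palmitoyltransferase, went from 10.22, 10.27 and 10.62 to 7.68, 7.58 and 7.79 (change -2.69 ± 0.22 SE, limma adjusted p = 7.93e-08). Its dimmer probe sets had called steps of -2.71, -2.64, -2.24 and -0.78, and a step of -0.52 that was not called. In none of these genes did the 2 h arrays overlap the 6 h arrays. Zdhhc14 had already moved at 2 h by -0.81 against untreated cells, and Pias3 by a bound of -0.67 with a fitted change of -0.72, so neither counts below as an early or a new change.

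Early changes were those called at 2 h against untreated D- cells with at least 2-fold. There were 218 such rises (2.93%) and 231 falls (3.11%). By 6 h 73 of the rises had decayed, meaning that they fell at the step, 85 had held, 11 had extended and 49 were undecided. A change held where the step was not called and its 95% interval lay within 2-fold either way. Of the falls, 148 had recovered, 46 had held, 7 had extended and 30 were undecided. The step newly raised 122 genes and newly lowered 45 that had not been called at 2 h. Of the new rises, 24 had a mean under log2 5 at 2 or 6 h, and 21 had one in untreated cells. A gene that is dim in some groups was tested only because at least 3 other arrays reached log2 5, so the filter favours changes among such genes. At the 2-fold limit of an early rise Tor1aip2, at 1.0, was just inside and Slc25a36, at 0.997, just outside. The share of early falls that recovered was 64.1%, and the share of early rises that decayed was 33.5%. These classes use the 2 h arrays for the early change and for the step, so a 2 h mean that is too high or low by chance favours decay.

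**Figure D1:**
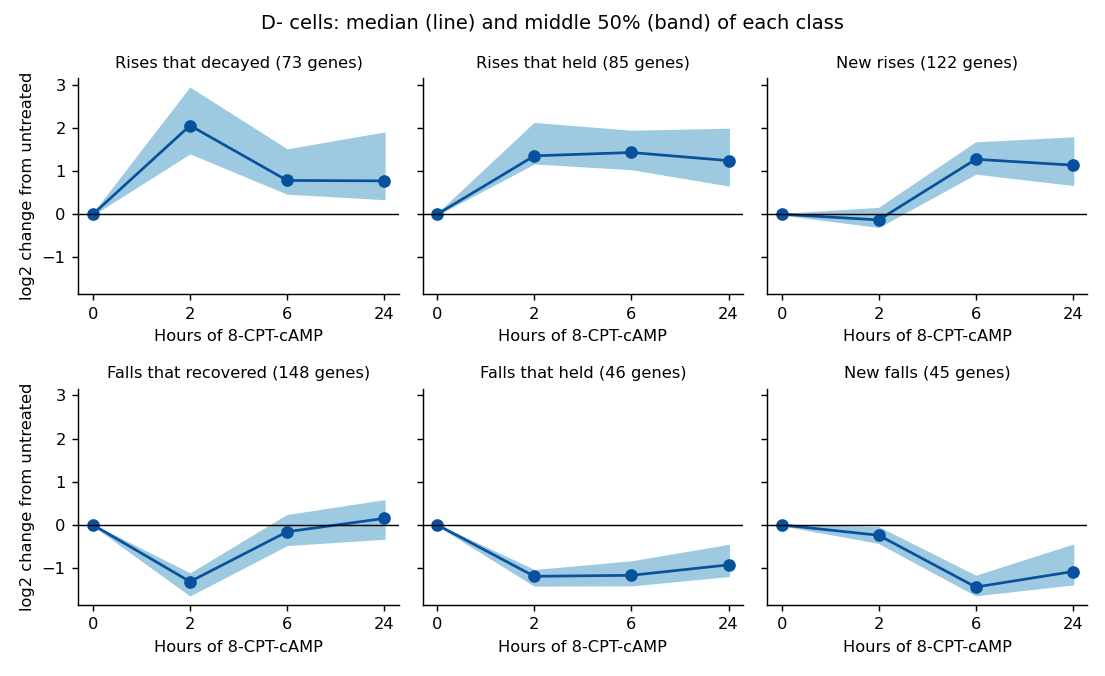
Median log2 change from untreated D- cells (line) and the middle 50% of genes (band) after 0, 2, 6 and 24 h for 6 classes of change, on evenly spaced times. The 73 decayed rises go from a median of 2.05 at 2 h to 0.78 at 6 h, and the 148 recovered falls from -1.31 to -0.16.

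An early set was also chosen on WT means, which do not enter the size of the D- step, although its p-values use a spread estimated over all arrays. Of 288 genes (3.87%) that rose at least 2-fold at 2 h in WT cells, 79 (27.4%) were lower at the D- step and 23 (7.99%) were higher, with a median step of -0.24. Of 204 early falls in WT (2.74%), 96 (47.1%) were higher at the D- step and 13 (6.37%) were lower, with a median of 0.51. Against the 9.21% and 14.4% of all genes called lower and higher, the WT-chosen rises were more often called lower and the WT-chosen falls more often called higher.

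The decayed rises had a median early change of 2.05 and a median step of -1.24, which left 46.8% of the early log2 change at 6 h. Of the 73 genes, 49 were still called above untreated cells at 6 h, 23 had returned and 1, Nr1d2, had crossed below. Returned means only that the change from untreated cells was not called at 6 h, with no limit on its size. Over all genes 31.8% were called different from untreated cells at 6 h. At 24 h their median change from untreated cells was 0.77, close to the 0.78 at 6 h, but these values share the untreated arrays. In WT cells, whose means do not enter the class although all arrays share 1 estimate of spread, 49 of the 73 were called lower at the same step and none higher, where 9.05% of all genes were called lower.

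Several transcription factors of the first wave were among the genes that faded. Fos, the AP-1 subunit, was under log2 5 on all untreated arrays and read 10.19, 10.20 and 10.53 at 2 h. At 6 h it read 7.54, 7.58 and 7.42, a step of -2.79 ± 0.40 SE (limma adjusted p = 4.39e-05), and it remained at a mean of 7.31 at 24 h. Every 6 h array lay below every 2 h array, and well above the untreated arrays.

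Nr4a1, the orphan nuclear receptor NUR77, read 12.34, 13.02 and 12.68 at 2 h and 10.19, 10.87 and 10.73 at 6 h, a step of -2.08 ± 0.31 SE (limma adjusted p = 5.95e-05). Its untreated arrays lay between 7.12 and 7.78. So Nr4a1, with 4 CRE cores in the promoter shown, lost part of its rise and stayed 3.18 above untreated cells at 6 h. Maff, a small MAF protein, went the whole way back: it read 6.60, 5.36 and 5.78 at 2 h, and 2.66, 2.68 and 2.61 at 6 h, against 2.64 to 2.73 on the untreated arrays.

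Since all Maff means but that at 2 h are under log2 5, its step is a bound of -0.91. The fitted step was -3.27 (limma adjusted p = 1.6e-07), and with values under 5 set to 5 it was -0.91 (limma adjusted p = 0.0138). Junb, another AP-1 subunit and chosen after its values were seen, read 8.65, 7.14 and 7.75 at 2 h and 6.58, 6.29 and 6.21 at 6 h (step -1.49 ± 0.41 SE, limma adjusted p = 0.0123). Without 2 h replicate 1 its adjusted p was 0.0832. Of 18 measured immediate-early and AP-1 genes, 5 were lower and 2 higher at the step, where 9.21% of all genes were lower and 14.4% higher. The median of the list was -0.23, and Myc was one of the higher genes.

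**Figure D2:**
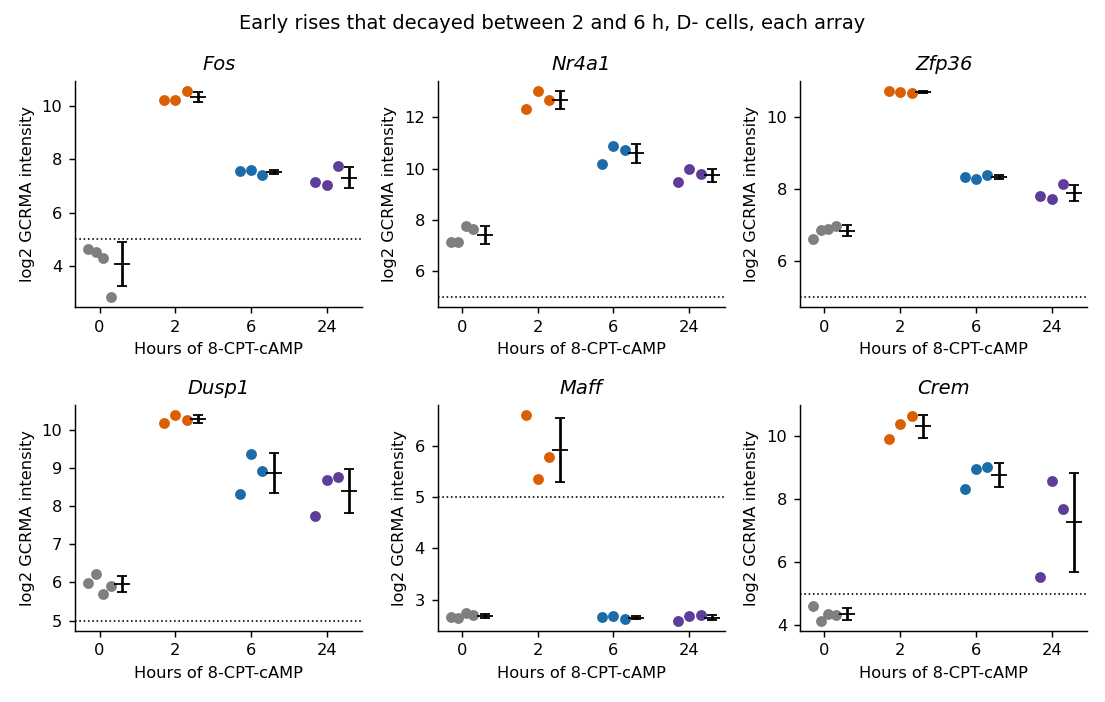
Log2 intensity of Fos, Nr4a1, Zfp36, Dusp1, Maff and Crem on each D- array (dots) at 0, 2, 6 and 24 h, with the mean and SD of each group (black) and a dotted line at log2 5. In each panel the 3 arrays at 6 h lie below the 3 at 2 h, and Maff alone of these is back at its untreated level.

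Genes that damp cAMP and kinase signalling faded in the same interval. Crem, whose short form represses CRE promoters, read 9.93, 10.38 and 10.64 at 2 h and 8.34, 8.95 and 9.03 at 6 h (step -1.54 ± 0.53 SE, limma adjusted p = 0.0417). The arrays do not overlap, but the call was lost without any 1 of 2 h replicates 2 and 3 or of the 3 arrays at 6 h, with adjusted p between 0.0671 and 0.131, and with replicates as a block among treated arrays (adjusted p = 0.0568). Its dimmer probe set had a step of -2.56 (limma adjusted p = 0.000816). Rgs2, which limits G protein signalling, read 11.39, 11.13 and 11.58 at 2 h and 9.74, 9.82 and 10.06 at 6 h (step -1.49 ± 0.36 SE, limma adjusted p = 0.00427).

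Dusp1, a nuclear phosphatase of MAP kinases, read 10.18, 10.39 and 10.27 at 2 h and 8.33, 9.37 and 8.92 at 6 h (step -1.41 ± 0.45 SE, limma adjusted p = 0.0276). That call was lost on leaving out any array but 6 h replicate 2, with adjusted p from 0.0508 to 0.116. Zfp36, or tristetraprolin, which speeds decay of AU-rich messenger RNA, read 10.72, 10.71 and 10.67 at 2 h and 8.33, 8.28 and 8.38 at 6 h (step -2.37 ± 0.23 SE, limma adjusted p = 3.68e-07). It still stood 1.49 above untreated cells at 6 h. Of 15 measured feedback inhibitors of signalling 6 were lower and 2 higher at the step, where 9.21% of all genes were lower and 14.4% higher. The median of the list was -0.52. Dusp2, a phosphatase of the same family as Dusp1, was among its higher genes at 1.21 (limma adjusted p = 0.00129).

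Over the measured CREB targets as a list, 11 of 18 were lower and 1, Gem, was higher, with a median step of -1.14 against -0.01 over all genes. At 2 h 13 of the 18 had risen and none had fallen, against 9.05% of all genes called higher and 13.2% called lower. In WT cells 7 of the 18 were lower at the step and 1 was higher, with a median of -0.75. Pde4b, a cAMP phosphodiesterase, had risen by 2.15 at 2 h and read 8.25, 6.91 and 6.32 there against 6.21, 5.66 and 6.71 at 6 h. Its arrays overlap and its step of -0.97 ± 0.37 SE was not called (limma adjusted p = 0.0634), although it was with quantile normalization, with median centring, as the mean of its probe sets, or without replicate 3 at either time (adjusted p 0.0126 to 0.042). Of the 22 measured genes of the cAMP and PKA pathway, 3 were higher and 1, Crem, was lower. Neither count is above its share over all genes tested, 14.4% higher and 9.21% lower. Adcy6, an adenylyl cyclase that makes cAMP, had fallen at 2 h and came back, from 8.37, 8.08 and 7.45 to 9.58, 9.24 and 9.36 (step 1.43 ± 0.18 SE, limma adjusted p = 1.03e-05). Prkar1a, the regulatory subunit of PKA, gained 0.40 ± 0.11 SE (limma adjusted p = 0.0106), a call lost without 6 h replicate 2 (adjusted p = 0.0525) and as the mean of its probe sets (adjusted p = 0.0678).

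Some genes of stress responses and of the clock were among those that faded. Ppp1r15a, or GADD34, which reverses phosphorylation of eIF2alpha, read 9.39, 9.58 and 9.26 at 2 h and 7.63, 7.40 and 6.95 at 6 h (step -2.09 ± 0.26 SE, limma adjusted p = 8.56e-06). At 6 h it no longer differed from untreated cells by the test (0.60, limma adjusted p = 0.067). Ddit3, the stress factor CHOP, returned likewise, from 9.78, 9.81 and 9.68 to 8.28, 8.09 and 7.85, with untreated arrays between 8.01 and 8.47 (step -1.68 ± 0.29 SE, limma adjusted p = 0.000263). Herpud1, a part of the ER degradation system, had a step of -1.35 ± 0.28 SE (limma adjusted p = 0.00137). Of 26 measured genes of the unfolded protein and ATF4 response, 4 were lower and none was higher, where 9.21% of all genes were lower. The median of the list was -0.05. Gadd45a, a growth-arrest gene of the DNA damage response, read 11.82, 11.46 and 11.18 at 2 h and 10.47, 9.97 and 9.87 at 6 h (step -1.39 ± 0.29 SE, limma adjusted p = 0.00154).

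Nr1d2, or REV-ERB beta, a repressor in the clock, was the gene that crossed: it read 8.65, 8.79 and 8.83 at 2 h and 7.06, 7.02 and 7.28 at 6 h, below every untreated array (7.39 to 7.91). Its step was -1.63 ± 0.15 SE (limma adjusted p = 3.16e-07). Per1, a clock gene with CRE control, had an early rise of 2.49 and a step of -1.24 (limma adjusted p = 0.00893), and that call depended on 6 h replicate 1, without which the adjusted p was 0.0727. Over 13 measured clock genes 4 were lower and 2 higher with a median step of 0.10, where 9.21% of all genes were lower and 14.4% higher. Under median centring 4 of the clock genes were lower and none higher.

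Several decayed rises came from other pathways. Nup98, a nucleoporin, was back at its starting level, with 9.74, 10.22 and 10.31 at 2 h, 7.26, 7.54 and 7.61 at 6 h and untreated arrays between 7.23 and 7.68 (step -2.62 ± 0.24 SE, limma adjusted p = 2.2e-07). Vps37b, an ESCRT-I subunit, had a step of -2.31 (limma adjusted p = 4.18e-05), Jmy, an actin nucleator and p53 cofactor, of -2.02 (limma adjusted p = 8.22e-06), and Lipg, endothelial lipase, of -1.97 (limma adjusted p = 6.63e-05). Foxo1, a forkhead factor of quiescence and death genes, kept most of its rise: it read 11.17, 11.72 and 11.56 at 2 h, 10.32, 10.81 and 10.51 at 6 h, and 8.45 to 8.74 untreated (step -0.94 ± 0.21 SE, limma adjusted p = 0.00272). Tob2, an antiproliferative deadenylation factor, had a step of -1.11 (limma adjusted p = 0.00361).

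Among the decayed rises, Grb7 and Tnfsf4 stood under log2 5 in WT cells at these times. Grb7, an adaptor of receptor tyrosine kinases, was under log2 5 on untreated arrays, read 8.61, 7.66 and 7.75 at 2 h and 6.78, 5.98 and 5.75 at 6 h (step -1.84 ± 0.28 SE, limma adjusted p = 6.63e-05). In WT its means stayed under 5 at 0, 2 and 6 h. Tnfsf4, the costimulatory ligand OX40L, read 7.54, 8.17 and 8.23 at 2 h and 6.27, 6.58 and 6.19 at 6 h (step -1.64 ± 0.19 SE, limma adjusted p = 3.67e-06), with WT means of 4.59 and 4.50. The difference of the steps was called for Tnfsf4 (-1.54, limma adjusted p = 0.013) but not for Grb7 (-1.62, limma adjusted p = 0.164).

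Rises that held had a median early change of 1.35 and a median step of -0.07, leaving 95.3% of the early log2 change. In WT 4 of the 85 were called lower and 2 higher at the step. Tceal1, a small nuclear protein related to elongation factor SII, read 10.78, 10.64 and 10.40 at 2 h and 11.22, 10.57 and 10.42 at 6 h, after a mean of 4.63 untreated (step 0.13, 95% interval -0.43 to 0.68). Tex2, a lipid-binding protein of the ER, read 11.69, 11.43 and 11.22 and then 11.42, 11.30 and 11.17 (step -0.15, interval -0.43 to 0.13). Ptpn22, a phosphatase that restrains T cell receptor kinases, had a step of -0.17 (interval -0.55 to 0.21) on an early rise of 3.18. The 2 h and 6 h arrays of these genes overlap.

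Slain1, a microtubule plus-end protein, and Abcb1a, the multidrug transporter, also held, with steps of -0.21 (interval -0.55 to 0.12) and -0.03 (interval -0.45 to 0.39). Ifngr1, a chain of the interferon gamma receptor chosen after its values were seen, had risen by 2.77 and had a step of -0.16 (interval -0.59 to 0.26). Cdkn1b, the G1 inhibitor p27, read 10.38, 10.54 and 10.45 at 2 h and 10.03, 10.70 and 10.62 at 6 h, a step within 0.01 of 0 (interval -0.67 to 0.66) on an early rise of 1.32. A held change is one whose interval excludes a 2-fold step, not one shown to be unaltered.

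In 11 genes the early rise extended. Wif1, a secreted Wnt inhibitor, read 11.30, 11.30 and 11.19 at 2 h and 13.15, 13.18 and 13.38 at 6 h (step 1.97 ± 0.30 SE, limma adjusted p = 8.1e-05), and it stayed at a mean of 13.13 at 24 h. Lmna, lamin A/C of the nuclear envelope, read 8.85, 8.40 and 8.36 and then 10.01, 9.74 and 9.55 (step 1.23 ± 0.31 SE, limma adjusted p = 0.00681). Pld3, a lysosomal nuclease, had a step of 1.15 (limma adjusted p = 3.99e-05). Ramp3, a partner of calcitonin-type receptors that couple to cAMP, read 9.31, 8.79 and 8.60 and then 10.81, 10.26 and 9.89 (step 1.42 ± 0.46 SE, limma adjusted p = 0.0301). Its call was lost without 2 h replicate 2 or 3 or 6 h replicate 1 or 2 (adjusted p 0.0651 to 0.116), with the replicate block among treated arrays (adjusted p = 0.0675) and in a fit of the D- arrays alone (adjusted p = 0.0729). In each of these genes the 6 h arrays lie above the 2 h arrays. Gzmb, granzyme B, chosen after its values were seen, could not be placed: replicate 1 was far above replicates 2 and 3 at 2 h (15.02 against 12.52 and 12.29) and at 6 h (15.19 against 13.77 and 13.25), and its step of 0.80 had an interval of -1.58 to 3.17.

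Falls that recovered had a median early change of -1.31 and a median step of 1.17, leaving 12.7% of the early change. At 6 h 104 of the 148 had returned, again meaning not called against untreated cells, 36 were still called below them and 8 had crossed above them. In WT 90 of the 148 were called higher at the step and none lower, where 12.5% of all genes were called higher. At 24 h their median change from untreated D- cells was 0.15.

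Myc, the growth factor-driven transcription factor, was a partial recovery. Its untreated arrays lay between 9.87 and 11.14, its 2 h arrays at 7.03, 7.69 and 7.36 and its 6 h arrays at 8.54, 9.06 and 9.01. The step was 1.51 ± 0.32 SE (limma adjusted p = 0.00172), all 6 h arrays were above all 2 h arrays, and Myc still differed from untreated cells by -1.65 (limma adjusted p = 0.000242). Of 10 measured genes of the MYC, MAX and MXD network 2 were higher at the step and none was lower. That share lay close to the 14.4% of all genes called higher. At 24 h the 3 Myc arrays had a mean of 9.0, between the 2 h and the untreated means.

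Other recovered falls were Bcl11b, Lcp2, Bid and Nfkbia, from different pathways. Bcl11b, a zinc-finger factor needed for T lineage commitment, read 9.65, 10.26 and 10.38 at 2 h and 10.89, 11.05 and 11.06 at 6 h, with untreated arrays from 11.84 to 12.10 (step 0.91 ± 0.18 SE, limma adjusted p = 0.00119). Lcp2, the adaptor SLP-76, read 6.52, 6.61 and 6.41 and then 8.27, 8.66 and 8.05 (step 1.81 ± 0.21 SE, limma adjusted p = 4.09e-06), although a dimmer probe set of the gene had a step of -0.04. Bid, a BH3-only death protein, had changed by -2.16 at 2 h and had a step of 1.18 ± 0.15 SE (limma adjusted p = 9e-06). Nfkbia, the NF-kB inhibitor IkB alpha, read 7.21, 7.50 and 7.75 and then 8.81, 9.35 and 9.21, within the range of untreated arrays or above it (step 1.64 ± 0.22 SE, limma adjusted p = 2.01e-05), with 1 dim probe set at -0.06.

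Rabgap1l, a regulator of RAB GTPases, went under log2 5 at 2 h (4.15 to 4.29) and was at 6.74, 6.78 and 6.65 at 6 h, a rise of at least 1.72 (limma adjusted p = 1.51e-07). Adam19, a metalloprotease, rose by at least 1.46 (limma adjusted p = 0.00208, and 0.0147 with values under 5 set to 5), with a dim probe set at -0.11. At 6 h Adam19 was still at -1.05 from untreated cells, a change that was not called (limma adjusted p = 0.0642). Plxdc1, a receptor of PEDF, rose by 2.55 (limma adjusted p = 0.000787). Elk3, an ETS repressor, and Kctd1, a nuclear repressor with a BTB domain, crossed: Elk3 read 7.59, 7.55 and 7.80 at 6 h against at most 6.64 untreated, and Kctd1 8.09, 7.52 and 7.56 against at most 6.99. A second probe set of Kctd1 had a step of 0.34 that was not called, and the mean of both a step of 1.53. Chdh, choline dehydrogenase, read 6.75, 6.91 and 7.68 at 2 h and 8.91, 8.35 and 8.63 at 6 h, and its mean at 24 h was 6.06. Trp53inp1, a stress and autophagy gene under p53, had a step of 1.17 (limma adjusted p = 0.00679).

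The genes of receptor gene assembly in thymocytes behaved otherwise. Ptcra, the pre-T cell receptor alpha chain, was one of 7 early falls that extended: it read 7.73, 6.88 and 7.38 at 2 h and 5.35, 5.55 and 5.24 at 6 h, from 10.99 to 12.42 untreated (step -1.95 ± 0.51 SE, limma adjusted p = 0.00758). Rag1, the recombinase that cuts receptor gene segments, held its fall: it read 8.37, 7.78 and 8.29 at 2 h and 7.92, 7.39 and 8.22 at 6 h, overlapping ranges, against 11.58 to 12.25 untreated (step -0.30, interval -0.90 to 0.29). Dntt, terminal transferase, which adds bases at the joins, was a new fall. It read 11.55, 11.62 and 11.58 at 2 h, near its untreated range of 11.75 to 12.07, and 9.50, 9.92 and 10.12 at 6 h (step -1.74 ± 0.23 SE, limma adjusted p = 1.68e-05). By 24 h Dntt had a mean of 12.41 and Rag1 of 10.39, and Ptcra of 7.16 ± 1.47 (SD, n = 3).

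Of 15 measured V(D)J, pre-T cell receptor and Notch genes, 5 were lower at the step and none was higher, with a median of -0.04. The shares over all genes tested were 9.21% lower and 14.4% higher. Rag2 and Notch1, chosen after their values were seen, were undecided, with steps of 0.73 ± 0.29 SE (limma adjusted p = 0.0767) and 0.66 ± 0.36 SE (limma adjusted p = 0.2). Without 2 h replicate 1 both became called as higher (adjusted p = 0.038 and 0.0252). Other extended falls were Il10, an anti-inflammatory cytokine, from 7.08, 5.07 and 5.50 to below log2 5 on all 3 arrays at 6 h (limma adjusted p = 0.00424, and 0.077 with values under 5 set to 5), H2-T3, a nonclassical MHC gene (step -1.79, limma adjusted p = 0.00103), and Ccnb1ip1 (step -1.08, limma adjusted p = 0.00554). Cdk5r1, the activator p35 of CDK5, held its fall, with 6.21 to 6.34 at 2 h and 6.16 to 6.27 at 6 h.

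**Figure D3:**
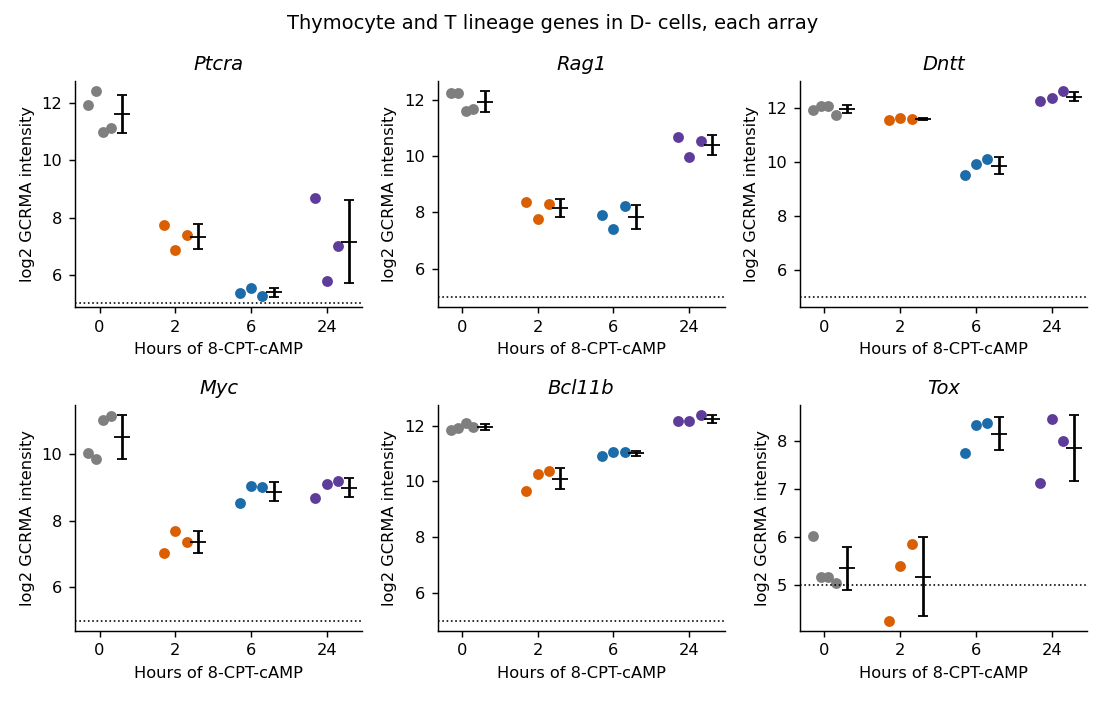
Log2 intensity of Ptcra, Rag1, Dntt, Myc, Bcl11b and Tox on each D- array (dots) at 0, 2, 6 and 24 h, with group mean and SD (black) and a dotted line at log2 5 where it is in range. Ptcra goes from a mean of 7.33 at 2 h to 5.38 at 6 h, Dntt from 11.58 to 9.85, and Tox from 5.16 to 8.16.

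The new rises had a median step of 1.37 and a median early change of -0.13. In WT 87 of the 122 were called higher at the step and none lower. When the 95% interval of the early change was also required to lie within 2-fold, 96 new rises and 35 new falls remained, a condition added after seeing the data. Some T lineage and T cell signalling genes also rose at the step, and of those named here Tox was a new rise. Over all genes tested 14.4% were called higher at the step and 9.21% lower. Tox, a nuclear factor of thymocyte selection, read 4.25, 5.39 and 5.86 at 2 h and 7.76, 8.34 and 8.39 at 6 h (step 3.00 ± 0.46 SE, limma adjusted p = 8.52e-05). Gfi1, a repressor needed in thymocytes, had a small early fall and read 8.04, 8.06 and 7.92 and then 9.66, 9.93 and 9.72, above all untreated arrays (step 1.77 ± 0.17 SE, limma adjusted p = 3.16e-07). Of 16 measured T lineage transcription factors 4 were higher, Tox, Gfi1, Bcl11b and Ets1, and none was lower. In WT 1 of the 16 was higher at the step and 1 was lower. Ets1, which rose by 0.77, did not pass when its probe sets were averaged (limma adjusted p = 0.572). Of 17 T cell receptor genes 4 were higher and 1 lower, with Vav1, an exchange factor downstream of the receptor, at 0.83 (limma adjusted p = 0.000211). In WT 4 of the 17 were higher and none lower.

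Some interferon-inducible genes started in this interval. Gbp3, a guanylate-binding GTPase of cell defence, read 5.09, 5.24 and 4.81 at 2 h and 8.76, 7.88 and 6.87 at 6 h (step 2.80 ± 0.42 SE, limma adjusted p = 6.78e-05), and was back at a mean of 5.06 at 24 h. Tap1 and Tapbp, which load peptides on MHC class I, rose by 1.48 ± 0.30 SE (limma adjusted p = 0.0011) and 1.70 ± 0.26 SE (limma adjusted p = 7.36e-05). Ifi47, an immunity-related GTPase chosen after its values were seen, read 7.88, 7.81 and 7.43 and then 10.79, 9.75 and 9.50 (step 2.31 ± 0.52 SE, limma adjusted p = 0.00276). Its early change of -0.82 was not called (limma adjusted p = 0.276), and at 6 h it stood 1.49 above untreated cells. Gbp2 went from under log2 5 to 6.78, 5.11 and 5.09, a rise of at least 0.66 that was not called with values under 5 set to 5 (limma adjusted p = 0.369).

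In these interferon genes replicate 1 was the highest of the 3 arrays at 6 h. Of 20 measured members of the list 6 were higher and 2 lower, with a median of 0.47, where 14.4% of all genes were higher and 9.21% lower. The 2 lower ones, named after their values were seen, were Irf1, an interferon regulatory factor that had risen at 2 h (step -1.19, limma adjusted p = 0.0208), and Bst2, or tetherin (step -1.40, limma adjusted p = 2.68e-06). The Irf1 call was lost without 2 h replicate 1 or 6 h replicate 2 or 3 (adjusted p 0.0665 to 0.106). Of 21 cytokine receptor and JAK-STAT genes 8 were higher and none lower. Among them were Jak2, the kinase, at 1.19 (limma adjusted p = 0.000402), Il17ra at 1.41 (limma adjusted p = 1.1e-05) and Il10rb at 0.89 (limma adjusted p = 0.000858). With median centring 5 of the 21 were higher and none lower.

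Other new rises included genes nearly silent before. Chst1, a sulphotransferase of keratan sulphate, read 5.14, 4.79 and 5.94 at 2 h and 8.99, 8.84 and 9.04 at 6 h (step 3.67 ± 0.35 SE, limma adjusted p = 3.9e-07). Gem, a small GTPase and known CREB target, was under log2 5 at 0 and 2 h and read 4.94, 6.01 and 7.02 at 6 h, a rise of at least 0.99. Its fitted step was 2.81 (limma adjusted p = 0.000891), and with values under 5 set to 5 it was 1.01 (limma adjusted p = 0.0323). Being dim at 0 and 2 h, Gem was tested only because later arrays were brighter. Oaz2, an antizyme that lowers polyamines, rose by 1.08 (limma adjusted p = 5.51e-05). Vim, the intermediate filament protein vimentin, read 13.40, 11.95 and 12.13 and then 14.57, 14.05 and 13.90 (step 1.68 ± 0.44 SE, limma adjusted p = 0.00846), a call lost without 2 h replicate 2 (adjusted p = 0.0524). Vim and Pecam1 (step 0.97, limma adjusted p = 0.00172) stand in a list of 10 stromal and epithelial markers whose summed intensity went from between 4180 and 11100 at 2 h to between 15600 and 24700 at 6 h. The other 8 of the 10 had means under log2 5 at both times. Vim had means of 12.50 and 14.17 and Pecam1 of 7.09 and 8.06, so the sum is nearly all Vim and not a separate result.

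The quiescence gene Rbl2, a pocket protein that represses E2F targets, read 6.36, 6.78 and 7.15 at 2 h and 7.53, 8.52 and 8.34 at 6 h (step 1.37 ± 0.35 SE, limma adjusted p = 0.00658). Sesn1, a stress-induced inhibitor of mTORC1, read 7.60, 7.85 and 7.66 and then 9.09, 9.30 and 9.23 (step 1.5 ± 0.25 SE, limma adjusted p = 0.000179), after a small early fall. Foxo3, a forkhead factor related to Foxo1, rose by 1.02 ± 0.18 SE (limma adjusted p = 0.000388), and Pik3r1, the p85 alpha subunit of PI3 kinase named after its values were seen, by 1.35 ± 0.32 SE (limma adjusted p = 0.00441). Dimmer probe sets of Pik3r1 had a step of 1.14 that was called and a step of 0.21 that was not. Of 15 measured FOXO targets and growth-arrest genes 4 were higher and 1, Foxo1 itself, was lower, where 14.4% of all genes were higher and 9.21% lower. Hk1, hexokinase, was the 1 of 19 glycolysis genes called, at 0.86 (limma adjusted p = 0.0025).

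Genes of growth fell at the step. Of 46 measured genes of ribosome biogenesis and RNA polymerase I, 31 were lower at the step and none was higher. Over all genes 9.21% were lower and 14.4% higher. The median of the list was -0.61 against -0.01 over all genes. At 2 h 10 of them had been called lower. Rrp12, a factor of ribosome export, read 8.47, 8.17 and 8.26 at 2 h and 7.58, 6.64 and 6.76 at 6 h (step -1.31 ± 0.29 SE, limma adjusted p = 0.0021). Nolc1, a nucleolar phosphoprotein, read 11.58, 11.81 and 11.87 and then 10.82, 10.52 and 10.56 (step -1.12 ± 0.20 SE, limma adjusted p = 0.000407), and 1 of its dimmer probe sets had a step of 0.11. Ftsj3, an rRNA processing protein, changed by -1.07 (limma adjusted p = 0.000199).

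Mdn1, the ATPase midasin of the large ribosomal subunit, which carries the E-box shown and was named after its values were seen, read 8.97, 9.60 and 9.34 at 2 h and 7.96, 7.99 and 7.71 at 6 h (step -1.41 ± 0.23 SE, limma adjusted p = 0.000123). Its early change was 0.02. Polr1b, a subunit of RNA polymerase I also named after its values were seen, was not called (step -0.43, limma adjusted p = 0.464). Of the proteins that make up the finished ribosome, 1 of 23 cytosolic ribosomal protein genes was lower and none higher, with a median of -0.12. The same held for 1 of 29 proteasome subunits and 1 of 34 respiratory chain genes.

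Metabolic genes that feed growth moved the same way. Of 19 measured nucleotide synthesis genes 11 were lower and none higher (median -0.65), and of 15 genes of serine and asparagine synthesis and amino acid transport 7 were lower and none higher (median -0.63). Shmt2, the mitochondrial serine enzyme of one-carbon supply, read 11.87, 12.09 and 12.09 at 2 h, close to untreated cells, and 10.80, 10.45 and 10.51 at 6 h (step -1.43 ± 0.26 SE, limma adjusted p = 0.000483). Gart, of purine synthesis, changed by -1.01 (limma adjusted p = 0.00244), and Ctps, which makes CTP, by -0.92 (limma adjusted p = 0.000701). Slc7a5 and Slc3a2, the pair that forms the large amino acid transporter, changed by -1.03 (limma adjusted p = 0.00128) and -0.99 (limma adjusted p = 0.00109). Slc3a2 had risen by 0.87 at 2 h (limma adjusted p = 0.00148) and was at -0.12 from untreated cells at 6 h (limma adjusted p = 0.686). Slc7a5 had an early change of 0.47 that was not called (limma adjusted p = 0.0983) and was at -0.56 at 6 h (limma adjusted p = 0.0366). Srm, spermidine synthase, read 11.52, 11.80 and 11.87 and then 10.22, 9.93 and 10.03 (step -1.67 ± 0.32 SE, limma adjusted p = 0.000753).

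Of 18 aminoacyl-tRNA synthetases 7 were lower and none higher (median -0.37), with Iars at -0.87 (limma adjusted p = 0.00119) and Yars at -0.80 (limma adjusted p = 0.000621). Of 22 heat shock and chaperone genes 7 were lower and 1 higher, with Hspd1, the mitochondrial HSP60, at -0.54 (limma adjusted p = 0.00246). The shares over all genes tested were 9.21% lower and 14.4% higher. The cholesterol genes did not move together, with 2 of 22 in each direction.

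Some cell cycle genes fell at the step. Of 38 measured DNA replication genes 10 were lower and none higher (median -0.42), where 9.21% of all genes were lower and 14.4% higher. Of 19 G1 cyclins, kinases and inhibitors 6 were lower and 1, Rbl2, was higher. Ccne1, cyclin E1, read 10.00, 9.55 and 9.77 at 2 h and 8.80, 8.54 and 8.56 at 6 h (step -1.14 ± 0.24 SE, limma adjusted p = 0.00137). E2f1, the S-phase activator, read 8.33, 8.11 and 8.23 and then 7.49, 7.05 and 7.26 (step -0.96 ± 0.14 SE, limma adjusted p = 5.88e-05). Orc2, of the origin complex, changed by -0.88 (limma adjusted p = 5.69e-05), and Cdc6, which loads the replicative helicase, by -1.29 (limma adjusted p = 0.017, and 0.0767 without 6 h replicate 2). Ccnd3, cyclin D3, had overlapping arrays and a step of 0.33 ± 0.21 SE (limma adjusted p = 0.284).

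Of 33 mitotic genes 6 were higher and none lower, with a median of 0.32. That share lay close to the 14.4% of all genes called higher. Cenpf, a kinetochore protein, read 9.07, 9.74 and 9.39 and then 10.29, 10.75 and 10.55 (step 1.13 ± 0.26 SE, limma adjusted p = 0.00293). Cdc25b, a phosphatase that starts mitosis, gained 0.82 (limma adjusted p = 8.86e-05) and Ttk, a checkpoint kinase, 0.80 (limma adjusted p = 0.00798).

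**Figure D4:**
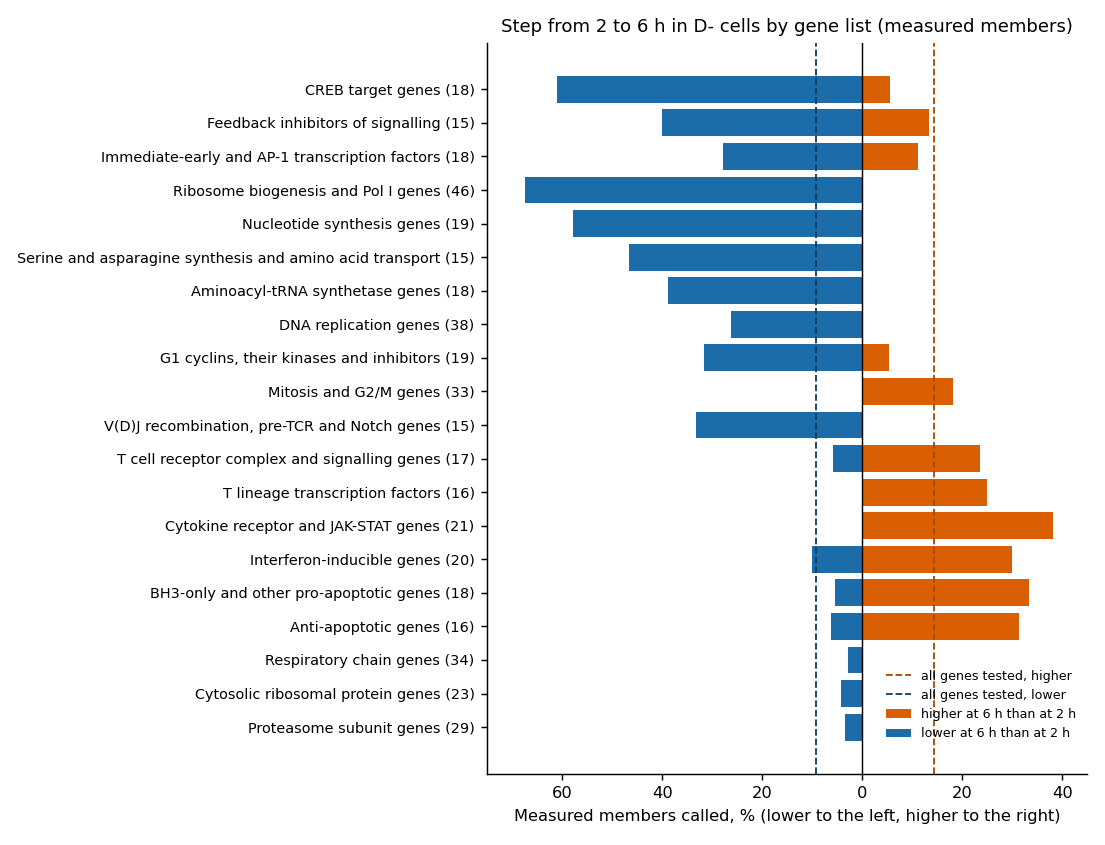
Share of the measured members of 20 gene lists called lower (blue, to the left) or higher (orange, to the right) at 6 h than at 2 h in D- cells, in percent, with the number measured after each name. Dashed lines mark all genes tested, 9.21% lower and 14.4% higher. Ribosome biogenesis stands farthest to the left, with 31 of 46 members lower, and cytokine receptor and JAK-STAT genes farthest to the right, with 8 of 21 higher.

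New falls outside these lists were led by Rgl3, a RAL exchange factor, which read 7.77, 7.85 and 8.11 at 2 h and 4.73, 4.73 and 5.39 at 6 h, a bound of -2.91 (limma adjusted p = 0.00069). Its early change of -1.46 just missed the test (limma adjusted p = 0.0534), so new is a matter of threshold here. Tle6, a corepressor of the Groucho family, read 8.73, 8.75 and 8.75 and then 6.53, 6.87 and 7.16 (step -1.89 ± 0.42 SE, limma adjusted p = 0.00257). Bmp7, a signalling ligand, read 8.65, 8.51 and 8.77 and then 6.96, 6.36 and 7.26 (step -1.78 ± 0.35 SE, limma adjusted p = 0.000855), with another probe set at 0.14. Rangrf, which binds RAN, changed by -1.49 (limma adjusted p = 0.00522). In WT 37 of the 45 new falls were called lower and none higher. Tle6, Bmp7 and Dntt had means of 10.07, 9.06 and 12.41 at 24 h, near or above untreated cells.

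Among genes for and against cell death, more were called higher than lower at the step. Of 18 pro-apoptotic genes 6 were higher and 1 lower. Of 16 anti-apoptotic genes 5 were higher and 1 lower, or 2 and 1 with median centring. Over all genes tested 14.4% were called higher and 9.21% lower. Fas, the death receptor, read 6.28, 6.00 and 5.53 at 2 h and 7.81, 6.77 and 7.26 at 6 h (step 1.34 ± 0.33 SE, limma adjusted p = 0.00497). Cflar, the inhibitor FLIP of that receptor, read 7.18, 7.17 and 7.15 and then 8.12, 8.32 and 8.34 (step 1.10 ± 0.20 SE, limma adjusted p = 0.000527), but a dimmer probe set had a step of -0.49 that was not called, and the mean of both was not called either (limma adjusted p = 0.265). Bcl2l1, or BCL-XL, gained 0.51 (limma adjusted p = 0.00578).

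Bcl2l11, the BH3-only protein BIM that is required for cAMP killing of S49 cells, had risen by 1.49 at 2 h. Its brightest probe set read 10.84, 11.05 and 10.89 at 2 h and 10.11, 10.42 and 10.45 at 6 h, ranges that do not overlap, and its step of -0.61 ± 0.23 SE was not called (limma adjusted p = 0.0678). With the replicate number as a block it was called (limma adjusted p = 0.0265). Its other 4 probe sets had steps of -2.16, -1.93, -1.65 and -1.38, all called (limma adjusted p from 7.48e-08 to 0.0129). Mcl1, an antagonist of BIM, went from 11.70, 11.91 and 11.89 to 11.05, 11.45 and 11.44 (step -0.52 ± 0.16 SE, limma adjusted p = 0.0216), but 4 of its other 5 probe sets had steps above 0, none called, and the call was lost without 2 h replicate 2 or 3 or 6 h replicate 1 (adjusted p 0.0706 to 0.117). Bcl2 stayed low, with 5.39 to 6.07 at 2 h and 5.36 to 5.71 at 6 h (step -0.12, limma adjusted p = 0.653).

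Of the glucocorticoid-responsive genes measured, 5 of 19 were lower and 3 higher, where 9.21% of all genes were lower and 14.4% higher. Tsc22d3, or GILZ, read 11.69, 11.81 and 11.95 at 2 h and 10.78, 11.03 and 11.32 at 6 h (step -0.77 ± 0.21 SE, limma adjusted p = 0.00941, and 0.0541 without 6 h replicate 1), but its other probe sets had steps of -0.51 and -0.04, neither called, and the mean of all was -0.44 (limma adjusted p = 0.114). Nr3c1, the glucocorticoid receptor, read 11.51, 12.27 and 12.15 and then 11.84, 12.51 and 12.44 (step 0.29 ± 0.25 SE, limma adjusted p = 0.447). In each pair of arrays with the same number it was higher at 6 h, and with the replicate number as a block among treated arrays its step was called (limma adjusted p = 0.0207). But the other Nr3c1 probe sets had steps of -0.04 and -0.62, neither called, and the mean of all was -0.12 (limma adjusted p = 0.765).

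The D- step was then set against the same step in WT cells, which asks where the course from 2 to 6 h depends on the line. Of 1070 genes called higher in D-, 646 (60.4%) were also called higher in WT and none was called lower. Of 685 called lower in D-, 426 (62.2%) were called lower in WT and 2 higher. In WT 933 genes (12.5%) were called higher and 673 (9.05%) lower. The difference of the steps, an interaction contrast, was called for 12 genes (0.161%), 8 with the higher step in D- and 4 with the lower. At an unadjusted p under 0.05 it took in 648 probe sets where chance would give 636. For the median gene its 95% interval reached 0.478 to either side, so differences much smaller than that could not be told from 0. With the replicate number as a block the probe sets called for this difference went from 14 to 25.

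Rag1 was above log2 5 in both lines at both times. In WT it went on falling, from 8.97 ± 0.30 at 2 h to 6.13 ± 0.63 at 6 h (SD, n = 3), while in D- it was 8.15 ± 0.32 and 7.84 ± 0.42 (difference of steps 2.54 ± 0.40 SE, limma adjusted p = 0.00715). Chst1, Trim16 and Nr2f2 rose at the step in D- and were under log2 5 in WT at both times. Chst1 differed by 3.67 (limma adjusted p = 0.0019), or by 3.60 with values under 5 set to 5. Nr2f2, the nuclear receptor COUP-TFII, read 3.81, 4.06 and 4.02 at 2 h and 7.15, 6.66 and 6.31 at 6 h in D- (difference 2.99 ± 0.30 SE, limma adjusted p = 2.26e-05, and a difference of 1.71 with values under 5 set to 5). Trim16, a ubiquitin ligase of the stress response, read 4.67, 4.84 and 4.32 and then 6.60, 7.77 and 7.78 (difference 2.55, limma adjusted p = 0.00326, or 2.38 with values under 5 set to 5).

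Ctla2b, a cathepsin inhibitor of T cells, went the other way: it stayed under log2 5 in D- and rose from 5.24 ± 0.53 to 7.63 ± 0.34 (SD, n = 3) in WT (difference -2.50 ± 0.39 SE, limma adjusted p = 0.00715, or -2.33 with values under 5 set to 5). These 5 genes kept the call in each of the alternative analyses run. Maged2 and Arvcf rose more in D- than in WT, by 1.17 (limma adjusted p = 0.0184) and 1.10 (limma adjusted p = 0.014). Ak4, a mitochondrial adenylate kinase, had fallen early in D- and rose by at least 1.87 at the step, and it was under 5 in WT (difference 2.75, limma adjusted p = 0.0161, or 1.87 and 0.117 with values under 5 set to 5). Ifitm2, an interferon-inducible membrane protein, differed by 2.56 (limma adjusted p = 0.0115), or by 0.09 with values under 5 set to 5, since its D- mean was 5.03 at 6 h; in WT it was 9.95 at both times. Cd300lf, an inhibitory receptor, had a step of 1.49 in WT and 0.07 in D- (difference -1.42, limma adjusted p = 0.0172). Pglyrp2, a peptidoglycan amidase, stayed under log2 5 in D- and rose by at least 1.66 in WT (difference -2.56, limma adjusted p = 0.0108). Each of these 6 genes and Tnfsf4 lost the call without WT 6 h replicate 2 (adjusted p 0.0586 to 0.0725), and all but Pglyrp2 also without some other single array (adjusted p 0.0501 to 0.0817). With the replicate block among treated arrays Ifitm2 and Maged2 lost it too (adjusted p = 0.0644 for each). With probe sets averaged, Arvcf and Ak4 were not called (limma adjusted p = 0.894 and 0.166).

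**Figure D5:**
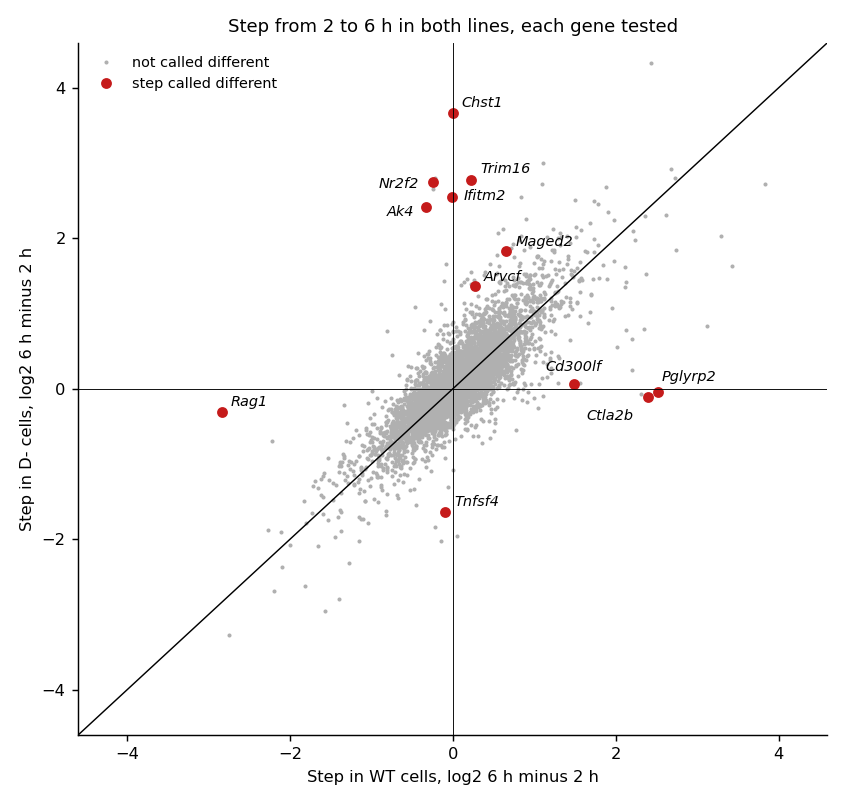
Step from 2 to 6 h in D- cells (y) against the step in WT cells (x), log2 6 h minus 2 h, for each of the 7435 genes tested, with the line of equality. Red points are the 12 genes whose steps were called different. Rag1 lies at -2.84 in WT and -0.30 in D-, and Chst1 at 3.67 in D- and near 0 in WT.

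Arrays of the same group at 2 or 6 h correlated at r between 0.986 and 0.995 across probe sets, which are not independent. After group means were taken out, the leading axis of variation (38.8% of the variance) split the arrays into 10 arrays, which hold replicate 1 of each treated group, and 16 others. With only the larger set, 2 arrays per treated group, 2106 probe sets were higher and 1682 lower at the step. Untreated D- cells had means of 11.62, 11.93 and 11.95 for the T lineage genes Ptcra, Rag1 and Bcl11b. Of the defining markers on the array 6 of 9 for B cells, at least 8 of 10 for myeloid cells and 4 of 6 for erythroid cells had means under log2 5 at both times. The 3′ minus 5′ difference of the Gapdh control probe sets, which tracks RNA integrity, came to -0.09 ± 0.064 (SD, n = 3) at 2 h and -0.079 ± 0.053 at 6 h.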

How the data were processed

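RNA of 26 samples was measured on single-colour Affymetrix arrays. The authors deposited one table of intensity values made with GCRMA, per the submitters' processing notes, and the version is not given in the sources used here. This method models background from probe sequence and brings the probe signals of the arrays to one distribution, which can hide a shift shared by most genes. The deposited probe set values still differed somewhat in level between arrays. Centring each array on its median moved the median step over probe sets tested from -0.02 to -0.11. The deposited intensity lies between 2 and 83530.7, a linear scale, and log2 of it was taken with no pseudocount. Depth does not apply to arrays, whose number limits the precision. Titles of treated WT samples read untreated, but their descriptions read treated and were followed. Of 22690 probe sets, 64 were controls, 20380 had 1 gene symbol by the platform annotation, 691 several and 1555 none, and only those with 1 symbol name genes.

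limma 3.58.1 in R 4.3.3 (lmFit, eBayes) was fitted to all 26 arrays as 8 groups (18 residual degrees of freedom, 3.34 from the prior), and p-values were adjusted by Benjamini-Hochberg over 12724 probe sets per contrast. Members, gene lists (38 lists, 839 genes, 641 measured) and rules were chosen with earlier results of these data known. Named genes are from the 15 highest and 15 lowest steps, the 6 largest of each class, the 4 largest called members of each list, the called differences of the steps, and genes named in any case, of which Gapdh was not analysed here as a gene; Junb, Ifngr1, Gzmb, Rag2, Notch1, Ifi47, Pik3r1, Mdn1, Polr1b, Irf1 and Bst2 were chosen after their values were seen. A gene is called at an adjusted p under 0.05, and errors are SE of limma or SD over arrays. Deviations of same-numbered arrays at 2 and 6 h correlated at r = 0.655, 0.454 and 0.415 and those of other pairs at -0.492 to 0.192. The label numbers were therefore taken as pairing the samples, but only in the alternatives with a replicate block. The main fit, and every p-value given without mention of a block, left this pairing out. The fit was tested on simulated data. Alternatives were the samples fitted, replicate and cluster blocks, variance model, array weights, scaling, filters, a pseudocount of 16, the mean of probe sets, fold limits and each array left out, and, added after seeing the data, the block among treated arrays, WT arrays left out of the difference, a stricter rule for new changes and values under 5 set to 5. Python 3.11.15, numpy 2.4.6, pandas 2.3.3 and matplotlib 3.10.9 were used. Promoters are from RefSeq (GRCm38.p6).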

Additional observations from a re-analysis of the deposited data

Results flagged for a closer look

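In the untreated D- cells (4 arrays), 1 array stood apart from the other 3 in 6 of the 129 genes examined, by Dixon's test, which flags about 1 in 20 groups by chance. Tox read 6.02 in replicate 1 against 5.04 to 5.17, and Mdn1 8.96 in replicate 1 against 9.36 to 9.41. Bmp7 read 9.48 in replicate 2 against 9.16 to 9.21, and Ccnb1ip1 10.01 in replicate 2 against 9.53 to 9.60. Slc3a2 read 10.59 in replicate 3 against 10.19 to 10.25, and Lmna 3.34 in replicate 3 against 4.00 to 4.03, all under log2 5. The untreated arrays enter the early change and the change from untreated cells, and they enter the step only through the shared estimate of spread.

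The step from 2 to 6 h differed between D- and WT cells for 12 genes by the interaction contrast in limma, with adjusted p between 2.26e-05 and 0.0184. As fitted, the D- step minus the WT step was 3.67 for Chst1, 2.99 for Nr2f2, 2.75 for Ak4, 2.56 for Ifitm2, 2.55 for Trim16, 2.54 for Rag1, 1.17 for Maged2 and 1.10 for Arvcf. It was -2.56 for Pglyrp2, -2.50 for Ctla2b, -1.54 for Tnfsf4 and -1.42 for Cd300lf. Where group means lie under log2 5 the fitted size is not a measured one: with values under 5 set to 5 it was 3.60 for Chst1, 2.38 for Trim16, 1.71 for Nr2f2, -2.33 for Ctla2b and -1.66 for Pglyrp2, and Ak4 (1.87) and Ifitm2 (0.09) were not called (limma adjusted p = 0.117 and 1.0). Of these, Chst1, Nr2f2, Trim16, Rag1 and Ctla2b kept the call in each alternative analysis run.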

How the results depend on the processing

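With the replicate number as a block, 3718 probe sets were called at the step (2156 higher, 1562 lower) and the difference of the steps was called for 25, or 28 with the block among treated arrays, against 2849 and 14 without it. The step was called for 4555 probe sets with array weights. Calls of lower were 1838 with the array cluster as a block, 2106 with array weights and 1816 with median centring, and centring gave 69 new falls. The difference of the steps was called for 37 probe sets with the cluster as a block, 114 in the larger cluster alone and 178 with array weights. With an early change of 1.5-fold in place of 2-fold, 126 rises decayed, 210 rises held, 294 falls recovered and 225 falls held. With 4-fold these counts were 39, 24, 13 and 2. The early set from WT gave 96 recovered falls. The cause of these moves was not tested.

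Leaving out 1 array at a time, the step was called for 2063 to 2512 probe sets (1252 to 1460 higher, 793 to 1052 lower) and the difference of the steps for 5 to 25, the lowest without WT 6 h replicate 2 and the highest without WT 6 h replicate 1. Decayed rises then numbered 63 to 75, recovered falls 124 to 152, held rises 71 to 90, held falls 35 to 54, new rises 115 to 141 and new falls 33 to 58. Of 108 named genes called at the step, 92 kept the call and direction in every setting run. Signs turned only for steps that were not called. In the larger cluster Tceal1 was at -0.025, Ifngr1 at 0.0092 and Cdkn1b at 0.17. Cdkn1b was at 0.10 with array weights and 0.029 with quantile normalization, which put Cd300lf at -0.0017, Ctla2b at 0.015 and Pglyrp2 at 0.022. Cd300lf was at -0.026 with median centring, Ctla2b and Pglyrp2 at 0.0 with values under 5 set to 5, and Nr3c1 at -0.12 as the mean of its probe sets. Leaving out 1 array gave -0.11 to 0.29 for Tceal1, -0.23 to 0.0901 for Abcb1a, -0.13 to 0.21 for Cdkn1b, -0.24 to 0.10 for Bcl2, -0.0478 to 0.17 for Cd300lf, -0.36 to 0.15 for Ctla2b and -0.10 to 0.03 for Pglyrp2. Signal limits what can be said of genes near log2 5, where a change is only a bound, and 3 arrays a group limit the precision.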
